A study of Homo sapiens with 9 samples.

Results

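The genes described here are 10 genes of the endoplasmic reticulum (ER) that the unfolded protein response switches on: HSPA5, HSP90B1, DNAJB9, SDF2L1, HERPUD1, XBP1, CRELD2, MANF, PDIA4 and HYOU1. They were chosen by name, as targets of the transcription factors ATF6 and XBP1, from a table of 58735 genes. The choice was made with earlier results of these data known. Each name matched 1 protein-coding gene. All 10 passed the filter on low counts, which left 17023 genes to test. They were measured by poly-A RNA sequencing in 9 samples of OVCAR3, an established cell line from a human high-grade ovarian carcinoma. The cells were sampled after 72 h in culture, in RPMI medium with serum and bovine insulin. A control group of 3 samples, labelled WT, carried a scramble short hairpin RNA. A short hairpin RNA is processed by the cell into a small guide that lowers matching mRNAs. The other groups, of 3 samples each, carried hairpin 76 (sh76) or hairpin 78 (sh78) against GPX3, and are labelled as GPX3 knock-down. The study's question was the role of GPX3, the gene of an extracellular glutathione peroxidase, a selenoenzyme that breaks down peroxides. All 3 groups carry a hairpin, and no group without one was analysed here. The labels do not say whether replicates came from separate transductions, or whether the cells were clones or pools. The p-values therefore measure the spread between these samples, which may be technical.

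Secreted and membrane proteins fold in the ER with the help of chaperones and disulfide isomerases. When unfolded proteins collect there, the sensors IRE1 (gene ERN1), ATF6 and PERK (gene EIF2AK3) start the unfolded protein response. IRE1 cuts a short intron out of XBP1 mRNA, which changes the reading frame and gives the active transcription factor. ATF6 moves to the Golgi, where the proteases encoded by MBTPS1 and MBTPS2 release its transcription factor part. PERK phosphorylates the translation factor eIF2 alpha, which favours production of ATF4 and, through it, of DDIT3 (CHOP). ATF6 and XBP1 bind ER stress response elements in the promoters of chaperone genes, so these genes are standard readouts of the response. Tumour cells that secrete much protein commonly keep a basal level of it.

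The promoters of several of the 10 genes hold such elements, and 4 are shown because their genes mark the extremes of what was measured: XBP1, HERPUD1 and HYOU1 fell, and HSPA5, the most abundant, was not called. Promoter windows of 300 bases, from 250 before to 50 after the start site, were taken from RefSeq (GRCh38.p14) and matched 10 of 10 genes. Both strands were searched for exact matches to ERSE (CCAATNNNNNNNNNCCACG), ERSE-II (ATTGGNCCACG), the unfolded protein response element UPRE (TGACGTGG) and the C/EBP-ATF element (TGATGNAAT). Each sequence below is printed 5′ to 3′ on the gene's own strand. It runs from 250 bases before the RefSeq start site and stops at that site or, for XBP1 and HERPUD1, where the deposited gene begins. Capitals mark the matched elements.
XBP1: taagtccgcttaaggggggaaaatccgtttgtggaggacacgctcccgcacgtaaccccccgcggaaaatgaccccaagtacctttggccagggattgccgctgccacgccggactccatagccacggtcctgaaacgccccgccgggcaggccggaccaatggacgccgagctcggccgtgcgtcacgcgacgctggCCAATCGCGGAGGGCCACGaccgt
HERPUD1: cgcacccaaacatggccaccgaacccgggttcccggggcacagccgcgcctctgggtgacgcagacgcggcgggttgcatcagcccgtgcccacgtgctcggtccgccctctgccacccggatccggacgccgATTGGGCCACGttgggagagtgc
HYOU1: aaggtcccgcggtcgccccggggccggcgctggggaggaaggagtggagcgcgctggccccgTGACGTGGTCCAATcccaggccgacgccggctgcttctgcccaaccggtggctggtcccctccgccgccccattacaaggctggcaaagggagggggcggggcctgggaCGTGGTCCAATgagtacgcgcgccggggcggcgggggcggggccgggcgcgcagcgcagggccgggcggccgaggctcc
HSPA5: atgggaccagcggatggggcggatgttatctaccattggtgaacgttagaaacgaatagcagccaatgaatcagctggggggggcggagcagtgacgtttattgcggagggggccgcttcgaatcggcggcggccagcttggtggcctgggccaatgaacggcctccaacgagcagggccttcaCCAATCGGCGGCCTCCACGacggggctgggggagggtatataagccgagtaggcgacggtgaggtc
The XBP1 stretch lies at chr22:28800598-28800819 (minus strand) and holds an ERSE at −52 to −34 relative to the start site. HERPUD1, at chr16:56931892-56932047 (plus strand), has an ERSE-II at −117 to −107. HYOU1, at chr11:119057206-119057455 (minus strand), has an antisense ERSE-II at −185 to −175, which overlaps a UPRE at −188 to −181, and another antisense ERSE-II at −79 to −69. In HSPA5, at chr9:125241344-125241593 (minus strand), the ERSE is at −66 to −48, close to the start site.

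Exact matches were rare among promoters as a whole. ERSE was found in 27 of 35116 windows (0.0769%) and in 4 of the 10 genes, which were HSPA5, HSP90B1, XBP1 and CRELD2. HSP90B1 held 2 copies, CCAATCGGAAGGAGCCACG on its own strand at −194 to −176 and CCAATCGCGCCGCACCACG on the other strand at −89 to −71. The CRELD2 copy, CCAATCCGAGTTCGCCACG, is on the other strand at −80 to −62. ERSE-II was found in 19 windows (0.0541%) and in 3 of the 10 genes, SDF2L1, HERPUD1 and HYOU1. The SDF2L1 copy is ATTGGTCCACG, on the other strand at −188 to −178. UPRE was in 256 windows (0.729%) and, of the 10 genes, in HYOU1. The C/EBP-ATF element was in 348 windows (0.991%) and in 0 of the 10 genes. DNAJB9, MANF and PDIA4 held none of these letters in the window. A match is a description of the sequence and does not show binding in these cells. The 10 genes were chosen as targets of ATF6 and XBP1, which bind such elements, so their share of matches is no independent evidence.

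The short XBP1 intron is shown because gene counts do not see it. In GENCODE release 29 it is the gap of 26 bases at chr22:28796122-28796147 (GRCh38, minus strand), which is left out of 1 and kept in 4 of the 7 annotated XBP1 transcripts. It is printed in capitals with 20 bases on each side.
XBP1 gap: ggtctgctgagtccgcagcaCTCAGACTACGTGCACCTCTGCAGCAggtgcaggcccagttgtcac
The letters just before the gap repeat its own last letters, so its placement can shift without changing the spliced product. A count per gene adds both forms, so the XBP1 values below give total XBP1 mRNA and not the spliced share.

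The libraries held 14652965 to 21327562 counts, so that a gene at 1 CPM (a count scaled for library size) had 14.7 to 21.3 counts, and mitochondrial genes took 4.242% to 5.164%. The targeted gene was lowered: GPX3 had 133 ± 34.8 CPM with scramble (SD, n = 3), 55.9 ± 0.852 CPM with sh76 and 30.6 ± 4.01 CPM with sh78, with adjusted p = 0.00264 and 0.000125 in edgeR's quasi-likelihood test. All 10 of 10 ovarian carcinoma and epithelial markers stood at 52.4 CPM (MECOM) or more in every library. Their summed level was 11000 to 11700 CPM with scramble, 9810 to 10300 CPM with sh76 and 8950 to 9250 CPM with sh78. KRT8 (5562 ± 463, 4809 ± 439 and 3878 ± 299.9 CPM) and KRT18 (2177 ± 244, 1717 ± 172 and 1579 ± 109 CPM) carried this step, and the other 8 markers summed to overlapping ranges of 3179 to 4122, 3191 to 3976 and 3472 to 3953 CPM. That sum includes MUC16 at 1216 to 2076 CPM and does not show that each of the 8 was unchanged. EPCAM had 317 ± 8.60, 282 ± 3.05 and 252 ± 11.4 CPM, and was called lower with sh78 (edgeR adjusted p = 0.00387). PAX8 had 902.5 ± 53.3, 744 ± 14.1 and 960 ± 42.3 CPM, and was called lower with sh76 (edgeR adjusted p = 0.0196). The part of the 10 markers in the results was not tested. Of the fibroblast markers, 2 of 5 passed the filter, and the sum was 27.6 to 39.2 CPM with scramble, 30.8 to 55 CPM with sh76 and 34.7 to 47.2 CPM with sh78, with DCN at 0 in scramble. Of the leukocyte markers, 2 of 5 passed, with sums of 1.16 to 2.58, 2.22 to 2.58 and 2.41 to 3.07 CPM in the same order of groups, MS4A1 at 0 in all libraries and CD3E and CD68 at 0 in scramble and sh76. Endothelial markers, 3 of 4 passing, summed to 17 to 19.9, 18.1 to 24.2 and 23.1 to 31.9 CPM. KDR was called higher with both hairpins (9.39 ± 0.666, 13.7 ± 1.63 and 18.8 ± 2.47 CPM, edgeR adjusted p = 0.0396 and 0.00087), while VWF had 8.25 ± 1.41, 7.27 ± 1.67 and 7.95 ± 1.62 CPM, and the part of these lists was not tested either.

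The 10 genes spanned a wide range of levels in the control cells. The deposited FPKM scale divides by the deposited length of each gene, such as 5155 bases for HERPUD1, 5165 for CRELD2 and 1099 for SDF2L1. Such a length need not equal that of the mRNA these cells make, so the order of the genes depends on it. On this scale HSPA5 was highest with scramble at 220 ± 5.32 FPKM (SD, n = 3). HSPA5 encodes BiP, the main ER member of the HSP70 chaperone family, and ranked 108 among 13709 tested protein-coding genes. HSP90B1, which encodes the ER member of the HSP90 family (GRP94), followed at 195 ± 8.48 FPKM. XBP1 at 122 ± 7.22 FPKM and PDIA4 at 114 ± 9.52 FPKM came next, and their libraries overlapped. Below a wide gap stood SDF2L1 at 36.05 ± 3.15 FPKM, MANF at 26.4 ± 0.583 FPKM and HYOU1 at 17.6 ± 0.415 FPKM, each apart from its neighbours. DNAJB9 at 8.87 ± 0.351 FPKM overlapped HERPUD1 at 7.96 ± 0.697 FPKM. CRELD2 was lowest at 5.32 ± 0.333 FPKM and ranked 6640, near the middle of the tested protein-coding genes.

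**Figure D1:**
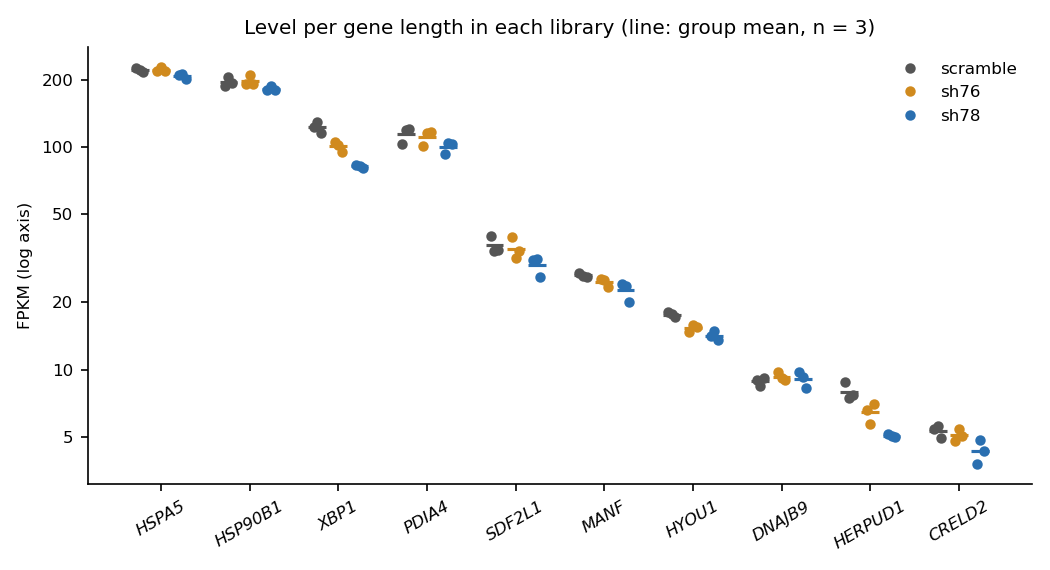
Level of the 10 genes in every library, as deposited FPKM on a log axis, with genes ordered by their scramble mean; points are libraries and short lines are group means (n = 3). HSPA5 and HSP90B1 stand highest in every group, and XBP1 moves from 122 FPKM with scramble to 81.5 FPKM with sh78, below PDIA4.

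The order of the levels was nearly the same in the hairpin groups. One exchange was seen: XBP1 lay at 100 ± 5.61 FPKM with sh76, overlapping PDIA4 at 110 ± 8.72 FPKM. With sh78 it was at 81.5 ± 1.01 FPKM, below every sh78 library of PDIA4 (99.9 ± 6.03 FPKM). The 10 genes together took 0.276% to 0.296% of all counts with scramble, 0.269% to 0.291% with sh76 and 0.246% to 0.257% with sh78, so the sh78 libraries did not overlap the others. Within that share HSPA5 and HSP90B1 weighed more, although neither was called against scramble. Their log2 fold changes were 0.01 and 0.03 with sh76, and −0.08 and −0.10 with sh78. Such a share also rises when the other genes of the 10 fall. HSPA5 and HSP90B1 made up 62.1% to 62.6% of the counts of the 10 genes with scramble, 64.5% to 65.6% with sh76 and 66.2% to 66.8% with sh78, with no overlap between groups.

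The genes are described below by role, first the transcription factor XBP1, then HERPUD1 of protein disposal, then the chaperones and folding enzymes, and last the co-chaperones and the small secreted proteins. Levels are CPM scaled with TMM factors, listed for replicates 1, 2 and 3. Calls are edgeR results with an adjusted p below 0.05 over all 17023 tested genes. Same-numbered replicates of different groups deviated together. A second fit therefore took the replicate number as a block, and its value is given below where it changes a call of a gene or moves a count. It is not given for the cell type markers above, apart from EPCAM, although it changed calls of other markers too. In bulk RNA, less RNA per cell cannot be told apart from fewer cells that express the gene.

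XBP1 fell with both hairpins, and further with sh78. XBP1 (ENSG00000100219, chromosome 22, 28794555 to 28800597, minus strand, GRCh38) encodes the transcription factor that IRE1 activates. It had 376, 394 and 347 CPM with scramble, 322, 312 and 288 CPM with sh76, and 252, 248 and 245 CPM with sh78. No 2 groups overlapped. Its level with sh76 was 82.4% of scramble (log2 fold change −0.28, SE 0.0634, edgeR adjusted p = 0.0256). With sh78 it was 66.7% of scramble (log2 fold change −0.58, SE 0.0638, edgeR adjusted p = 0.000198), which ranked 22 among all tested genes by p. The log2 ratios of same-numbered libraries were −0.22, −0.34 and −0.27 for sh76 and −0.58, −0.67 and −0.50 for sh78, so all 6 pairs went down. The sh76 call was lost without scramble replicate 1 (adjusted p = 0.0512) or 2 (0.114) or sh76 replicate 2 (0.0927) or 3 (0.107), and with only the 2 groups compared (0.0568). The sh78 call was kept whichever library was left out. No gene overlaps XBP1 in the annotation, and its processed pseudogene XBP1P1 had 0 to 6 counts per library.

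HERPUD1 fell with sh78, to the lowest share of its scramble level among the 10 genes. HERPUD1 (ENSG00000051108, chromosome 16, 56932048 to 56944863, plus strand) encodes an ER membrane protein of the complex that passes misfolded proteins to the proteasome. It had 45.4, 38.6 and 39.7 CPM with scramble, 34.4, 29.7 and 36.2 CPM with sh76, and 26.7, 25.9 and 25.7 CPM with sh78. The 3 sh78 libraries lay close together, and no 2 groups overlapped. With sh78 the level was 63.4% of scramble (log2 fold change −0.66, SE 0.0980, edgeR adjusted p = 0.00158), and the call was kept whichever library was left out. The sh76 samples gave a log2 fold change of −0.30 (SE 0.0961, 95% interval −0.51 to −0.10), with an edgeR adjusted p of 0.105, or 0.00133 with the replicate block. The pairs gave −0.40, −0.38 and −0.13 for sh76, so the third pair was the smallest. The sense-intronic genes inside HERPUD1 reached at most 1.08% of its count.

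**Figure D2:**
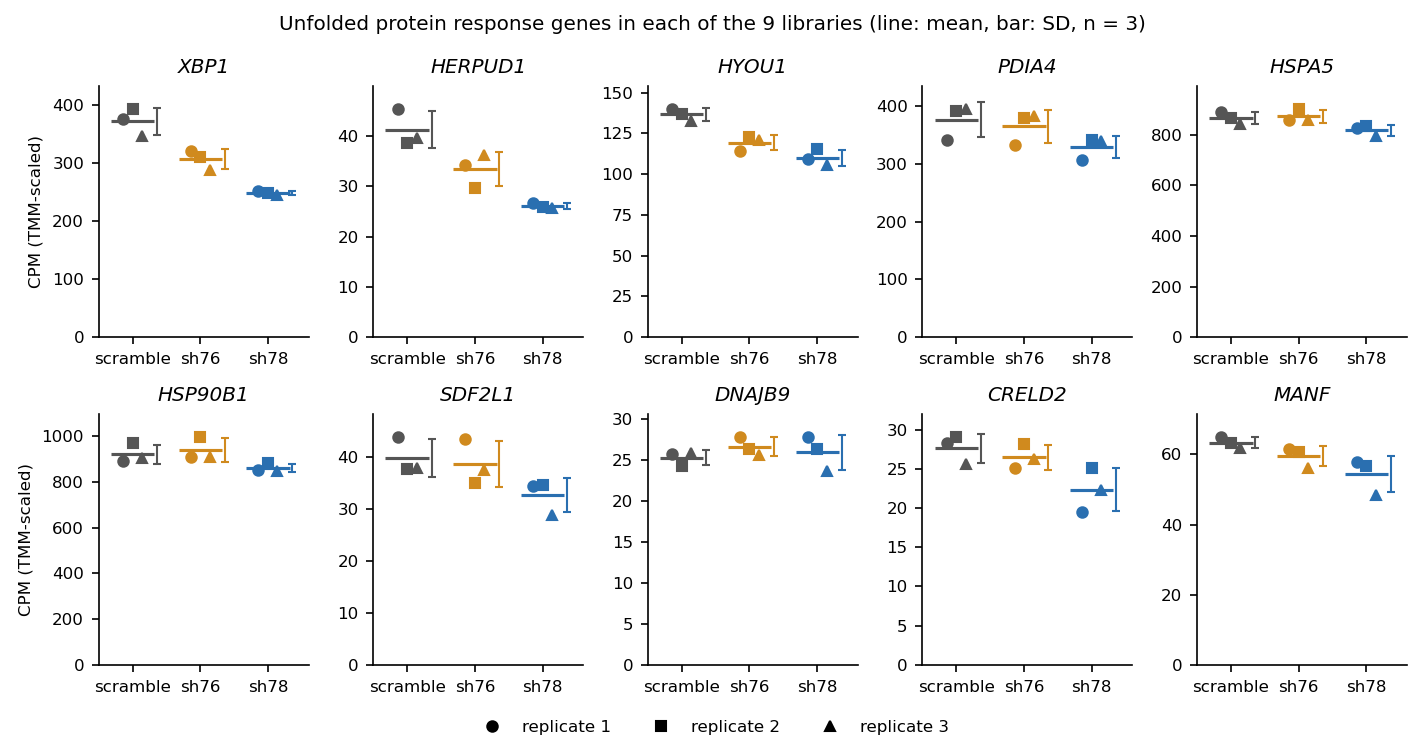
CPM (TMM-scaled) of each of the 10 genes in every library, with a vertical axis from 0; symbols mark the replicate number, lines the group mean and bars the SD (n = 3). XBP1 and HERPUD1 step down from scramble to sh76 to sh78 without overlap, while DNAJB9 overlaps throughout.

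Of the chaperones, HYOU1 fell with sh78 and the more abundant HSPA5 and HSP90B1 were not called with either hairpin. HYOU1 (ENSG00000149428, chromosome 11, 119044189 to 119057202, minus strand) encodes GRP170, a large HSP70-like chaperone that exchanges the nucleotide of BiP. It had 140.0, 137 and 133 CPM with scramble, 114, 123 and 121 CPM with sh76, and 109, 115 and 106 CPM with sh78. Both hairpin groups lay wholly below scramble, and overlapped each other. The log2 fold change with sh78 was −0.31 (SE 0.0617, edgeR adjusted p = 0.00966), or 80.7% of scramble, and it was not called without sh78 replicate 3 (adjusted p = 0.0515). With sh76 it was −0.19 (95% interval −0.33 to −0.06), with an edgeR adjusted p of 0.104, or 0.00172 with the replicate block. An antisense gene that overlaps the span of HYOU1 by 1305 bases had 0 counts in every library. How reads from these bases were counted is not stated.

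HSPA5 (ENSG00000044574, chromosome 9, 125234853 to 125241330, minus strand) had 891, 867 and 842 CPM with scramble, 859, 902 and 857 CPM with sh76, and 826, 833 and 794 CPM with sh78. All sh78 libraries lay below all others, and scramble and sh76 overlapped. Its log2 fold change was 0.01 with sh76 (95% interval −0.10 to 0.13, edgeR adjusted p = 0.951) and −0.08 with sh78 (95% interval −0.20 to 0.03, edgeR adjusted p = 0.481). These intervals bound the change in HSPA5 from either side and include 0, which does not show that it was unchanged. The replicate block did not change these calls (adjusted p = 0.89 and 0.138).

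HSP90B1 (ENSG00000166598, chromosome 12, 103930107 to 103953645, plus strand) had 891, 969 and 904 CPM with scramble, 910, 998 and 909 CPM with sh76, and 852, 882 and 848 CPM with sh78. In each group replicate 2 was the highest, and the sh78 libraries lay below all others. The log2 fold change was 0.03 with sh76 (95% interval −0.10 to 0.15, edgeR adjusted p = 0.871) and −0.10 with sh78 (95% interval −0.23 to 0.03, edgeR adjusted p = 0.437). Neither was called with the replicate block (adjusted p = 0.69 and 0.0711). The protein-coding gene C12orf73 overlaps the span of HSP90B1 by 3444 bases on the other strand, introns included. C12orf73 had at most 1.08% of the HSP90B1 count. How reads from shared bases were counted is not stated, so this does not show how many reads were affected.

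PDIA4 (ENSG00000155660, chromosome 7, 149003062 to 149028641, minus strand) encodes ERp72, a protein disulfide isomerase. It had 341, 392 and 395 CPM with scramble, 332, 380 and 384 CPM with sh76, and 307, 342 and 340.0 CPM with sh78. Replicate 1 was the lowest in every group, and the groups overlapped. PDIA4 gave a log2 fold change of −0.04 with sh76 (95% interval −0.21 to 0.12, edgeR adjusted p = 0.839) and −0.19 with sh78 (95% interval −0.35 to −0.03, edgeR adjusted p = 0.201). The sh78 pairs gave −0.15, −0.20 and −0.22, and with the replicate block the sh78 difference was called (adjusted p = 0.000463).

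The co-chaperones differed from each other. SDF2L1 (ENSG00000128228, chromosome 22, 21642261 to 21644298, plus strand) encodes an ER protein that works with BiP and J-domain proteins. It had 44.0, 37.7 and 37.8 CPM with scramble, 43.5, 35.03 and 37.5 CPM with sh76, and 34.5, 34.7 and 28.9 CPM with sh78. The sh78 libraries were below all others, and scramble and sh76 overlapped. For SDF2L1 the log2 fold change was −0.04 with sh76 (edgeR adjusted p = 0.885) and −0.28 with sh78 (SE 0.107, edgeR adjusted p = 0.173, or 0.00253 with the replicate block).

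DNAJB9 (ENSG00000128590, chromosome 7, 108569568 to 108574850, plus strand) encodes ERdj4, a J-domain co-chaperone of BiP that also holds back IRE1. It had 25.8, 24.2 and 25.9 CPM with scramble, 27.9, 26.4 and 25.6 CPM with sh76, and 27.8, 26.4 and 23.6 CPM with sh78. It was the one gene of the 10 with a positive log2 fold change for sh78, at 0.04 (95% interval −0.16 to 0.24, edgeR adjusted p = 0.895). For sh76 it was 0.07 (95% interval −0.13 to 0.27, edgeR adjusted p = 0.754). DNAJB9 shares 183 bases with THAP5 and 99 bases with PNPLA8 on the other strand, and THAP5 had up to 199.7% of its count. The libraries keep no strand, and how reads from the shared bases were counted is not stated, which leaves the DNAJB9 values uncertain.

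CRELD2 and MANF encode small ER proteins that are secreted when the ER is stressed. CRELD2 (ENSG00000184164, chromosome 22, 49918167 to 49927540, plus strand) had 28.2, 29.1 and 25.5 CPM with scramble, 25.0, 28.2 and 26.2 CPM with sh76, and 19.6, 25.1 and 22.4 CPM with sh78. The sh78 libraries lay just below the scramble libraries, with the smallest gap between 25.1 and 25.5 CPM. Fitted log2 fold changes were −0.06 with sh76 (edgeR adjusted p = 0.84) and −0.31 with sh78 (SE 0.108, edgeR adjusted p = 0.137, or 0.00457 with the replicate block). Its coefficient of variation was 6.7% with scramble, 6.01% with sh76 and 12.4% with sh78. CRELD2 shares 292 bases with ALG12 on the other strand, which had up to 59.0% of its count. How reads from these bases were counted is not stated, so the CRELD2 values are uncertain too.

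MANF (ENSG00000145050, chromosome 3, 51385047 to 51389397, plus strand) encodes a neurotrophic factor of the ER. It had 65.1, 63.1 and 61.8 CPM with scramble, 61.5, 60.7 and 56.2 CPM with sh76, and 58.0, 56.7 and 48.5 CPM with sh78. Both hairpin groups were wholly below scramble, by a narrow margin for sh76. The log2 fold change was −0.09 with sh76 (95% interval −0.26 to 0.08, edgeR adjusted p = 0.615) and −0.22 with sh78 (SE 0.0810, edgeR adjusted p = 0.163, or 0.00367 with the replicate block).

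Counted over the 10 genes, XBP1 was called lower with sh76, XBP1, HERPUD1 and HYOU1 were called lower with sh78, and no gene was called higher. With sh76, edgeR called 1 of 10 lower (XBP1), where 2.16% of all tested genes were called lower. With sh78 it called 3 of 10 lower (XBP1, HERPUD1 and HYOU1), against 2.56% of all. For the mean of both hairpins it again called 3 lower, the same 3 genes, against 2.55%. With the replicate block the counts were 3 of 10 for sh76 (XBP1, HERPUD1 and HYOU1) against 10.7% of all tested genes, 7 of 10 for sh78 against 10.1%, and 6 of 10 for the mean of both against 11.0%. HSPA5, HSP90B1 and DNAJB9 were not called in any of these. Both hairpins were compared with the same scramble libraries, so the 2 comparisons are not independent of each other. The 10 genes were chosen with earlier results of these samples known, so these counts are no independent evidence.

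The same libraries were also compared without a model, which restates the values behind the calls and adds no independent evidence. With sh76, 4 of 10 genes had all 3 libraries below all 3 of scramble (HERPUD1, XBP1, MANF and HYOU1), where 11.7% of all tested genes did. With sh78 this held for 8 of 10, all but DNAJB9 and PDIA4, against 11.2% of all. Same-numbered pairs were all lower for 6 of 10 genes with sh76 against 25.3% of all tested genes, and for 9 of 10 with sh78 against 23.0%. No gene of the 10 had a hairpin group wholly above scramble. The median log2 fold change of the 10 genes was −0.05 with sh76 and −0.25 with sh78, beside 0.0064 and 0.0063 for all tested genes.

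**Figure D3:**
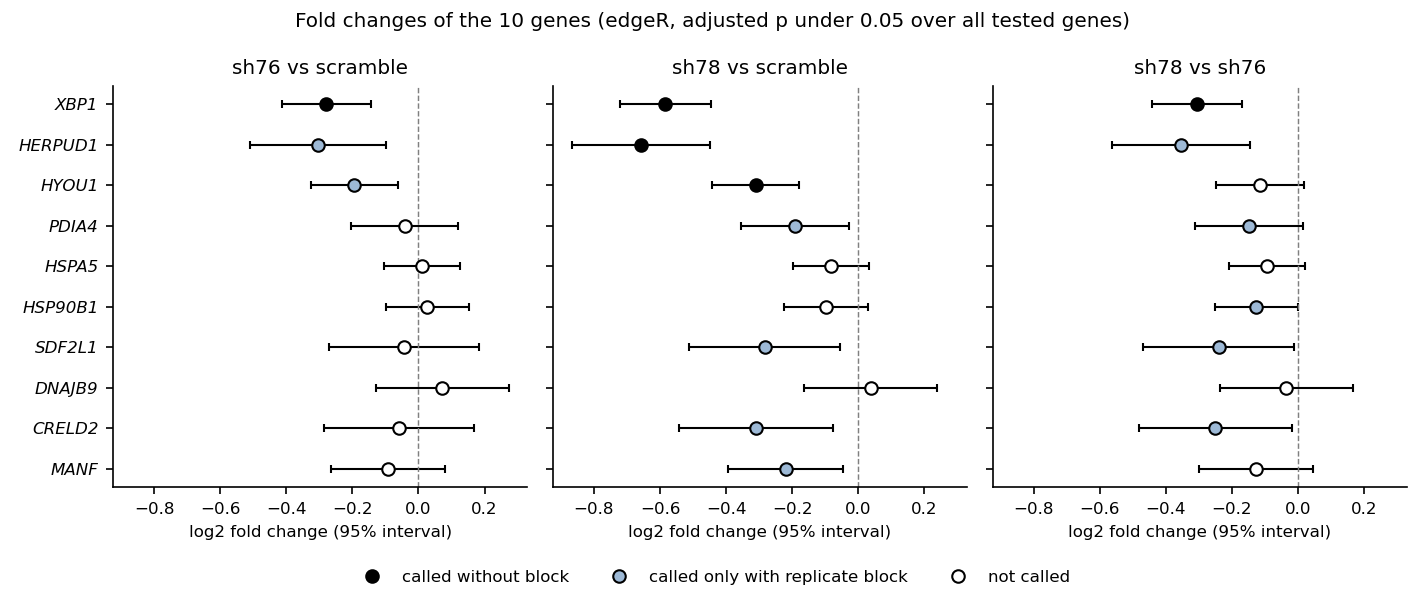
Log2 fold change with 95% interval for the 10 genes in 3 comparisons, from edgeR without a block; filled black points were called without the block, blue points with the replicate block only, and open points in neither. For sh78 against scramble 9 of 10 points lie below 0, with HERPUD1 at −0.66 and XBP1 at −0.58 the lowest.

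The hairpins were also compared with each other, which tests their difference directly. This comparison shares its samples with those above. XBP1 was lower with sh78 than with sh76, at 80.9% of its level (log2 fold change −0.31, SE 0.0637, edgeR adjusted p = 0.0163). This call was lost without sh76 replicate 1 (adjusted p = 0.0637) or 2 (0.0785), or without sh78 replicate 2 (0.0582) or 3 (0.07). XBP1 was the 1 of 10 called, where 1.72% of all tested genes were called lower. HERPUD1 stood at −0.35 (SE 0.0981, 95% interval −0.56 to −0.14), with an edgeR adjusted p of 0.0649. With the replicate block 6 of 10 were called lower, against 8.62% of all: XBP1 (adjusted p = 5.02e-07), HERPUD1 (0.000393), PDIA4 (0.00724), SDF2L1 (0.0117), HSP90B1 (0.0193) and CRELD2 (0.0243). All 10 log2 fold changes were negative, with a median of −0.14 beside 0.00029 for all tested genes.

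Several genes separated the hairpins library by library, the abundant chaperones among them. The sh78 libraries lay wholly below those of sh76 for 5 of 10 genes (HSPA5, HSP90B1, SDF2L1, HERPUD1 and XBP1), against 10.9% of all tested genes. In same-numbered pairs 9 of 10 were lower each time, all but DNAJB9, against 23.9% of all. HSPA5 gave −0.06, −0.11 and −0.11 in these pairs, small but of 1 sign (95% interval of the fitted difference −0.21 to 0.02, edgeR adjusted p = 0.431). For HYOU1 the fitted difference was −0.12 (95% interval −0.25 to 0.02, edgeR adjusted p = 0.39), so the data do not show that the hairpins differ for it, nor that they act alike.

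The sensors and transducers of the response were looked at next, as a list of 8 genes. With sh76, 1 was called higher and 0 lower. With sh78, 1 was called higher and 2 lower, and the list medians were −0.12 and −0.20. The sh76 call went to 0 without scramble replicate 2 or 3 or sh76 replicate 1. The 3 sh78 calls went to 0 without scramble replicate 2 or sh78 replicate 1, and to 1 without scramble replicate 3, sh76 replicate 2 or sh78 replicate 2 and with limma on log2 FPKM. With the replicate block, 2 of the 8 were called higher and 4 lower for sh76, and 1 higher and 4 lower for sh78. Of all 17023 tested genes, edgeR called 243 higher and 367 lower with sh76, and 315 higher and 435 lower with sh78. With the block these counts were 1639 higher and 1828 lower, and 1666 higher and 1722 lower. They are the background for this list and for each list below. ATF6, the sensor that is itself a transcription factor, had 88.5 ± 4.05 CPM with scramble (SD, n = 3), 77.1 ± 6.78 CPM with sh76 and 69.6 ± 7.63 CPM with sh78. Its log2 fold change was −0.35 with sh78 (edgeR adjusted p = 0.0421) and −0.20 with sh76 (0.266, or 0.00398 with the replicate block). MBTPS1, the protease that makes the first cut in ATF6, fell with sh78 from 168 ± 2.85 to 142 ± 2.19 CPM (log2 fold change −0.24, edgeR adjusted p = 0.0199), and gave −0.16 with sh76 (0.125, or 0.00508 with the block). MBTPS2, which makes the later cut, gave −0.34 with sh78 (edgeR adjusted p = 0.0891, or 0.00378 with the block) and −0.26 with sh76 (0.191, or 0.0238 with the block). ATF6B, the relative of ATF6, gave −0.09 (edgeR adjusted p = 0.653).

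ERN1, which encodes IRE1, had 15.2 ± 1.05 CPM with scramble (SD, n = 3), 12.4 ± 1.69 CPM with sh76 and 10.9 ± 1.56 CPM with sh78. Its log2 fold changes of −0.29 and −0.48 were not called by edgeR (adjusted p = 0.297 and 0.0758), and were called with the replicate block (0.0432 and 0.000985). EIF2AK3, which encodes PERK, did otherwise: it rose with sh76 from 18.4 ± 1.68 to 26.2 ± 2.51 CPM (log2 fold change 0.51, edgeR adjusted p = 0.0177) and had 17.6 ± 0.599 CPM with sh78. The difference between the hairpins was itself called (log2 fold change −0.57, edgeR adjusted p = 0.00941). CREB3L2, an ER-bound transcription factor related to ATF6, rose with sh78 from 26.2 ± 4.38 to 37.1 ± 5.14 CPM (log2 fold change 0.51, edgeR adjusted p = 0.0431), and gave 0.20 with sh76 (0.475, or 0.0406 with the block).

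Most other ER genes were not called. Of 26 other ER chaperones and foldases, sh76 had 1 lower and sh78 had 2 lower, and 0 were higher with either. These were HSPA13, an HSP70-like protein of the microsome, at 87.9 ± 6.35 CPM in the scramble samples against 71.5 ± 4.08 CPM in the sh76 samples and 66.5 ± 2.08 CPM in the sh78 samples (edgeR adjusted p = 0.0392 and 0.00665), and ERP29, a folding factor, lower with sh78 (−0.28, edgeR adjusted p = 0.0335). The sh76 call of HSPA13 was lost without scramble replicate 1 or 3, any sh76 replicate or sh78 replicate 2, with only the 2 groups compared and with limma. The sh78 count went from 2 to 1 without scramble replicate 2 or 3, sh76 replicate 2 or sh78 replicate 1, with only the 2 groups compared and with limma. Of 18 genes of ER-associated degradation, the process HERPUD1 belongs to, edgeR called 0 for sh76 (1 at an unadjusted p under 0.05, 0 with DESeq2) and 1 lower for sh78, DERL1 (−0.27, adjusted p = 0.0366), which gave −0.14 with sh76 (0.305, or 0.0444 with the block). The DERL1 call for sh78 was lost without any 1 of 7 libraries, all but scramble replicate 1 and sh76 replicate 1, with only the 2 groups compared and with limma. Of 22 genes of ER translocation and the signal peptidase, edgeR called 0 with either hairpin (3 and 3 at an unadjusted p under 0.05, 0 and 0 with DESeq2). Of all 17023 tested genes, 2959 with sh76 and 2983 with sh78 had an unadjusted edgeR p under 0.05. With the block, 3 of these 22 were called higher for sh76, and 3 higher and 1 lower for sh78. The medians of these 3 lists with sh78 were −0.09, −0.10 and −0.01. With the replicate block, 2 of the 26 chaperones and foldases were called higher and 2 lower for sh76, and 1 higher and 8 lower for sh78. Of the 18 degradation genes, 1 was higher and 2 were lower for sh76, and 0 higher and 5 lower for sh78. Over all 17023 tested genes, the block called 1639 higher and 1828 (10.7%) lower for sh76. For sh78 it called 1666 higher and 1722 (10.1%) lower.

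Few genes of vesicle transport between ER and Golgi were called without the block. Of the 20 genes on this list, edgeR called 2 lower with sh76 and 0 with sh78 (6 at an unadjusted p under 0.05, 1 with DESeq2). With sh78, 2983 of all 17023 tested genes had an unadjusted edgeR p under 0.05. The list includes CREB3L1, which encodes a transcription factor related to CREB3L2 and no transport protein. It was not called with sh76 or sh78 (edgeR adjusted p = 0.96 and 0.992). The sh76 count went to 1 without scramble replicate 2 or 3 or any sh76 replicate. With the replicate block, 1 was higher and 4 were lower for sh76, and 3 higher and 4 lower for sh78. SEC23A, a coat protein of the vesicles that leave the ER, fell with sh76 from 85.3 ± 2.94 to 64.5 ± 1.18 CPM (edgeR adjusted p = 0.00308) and had 94.2 ± 3.26 CPM with sh78 (0.263, or 0.0418 with the block). The hairpins differed from each other (log2 fold change 0.55, edgeR adjusted p = 0.000386). KDELR1, the receptor that returns BiP and other chaperones to the ER, was lower with sh76 (−0.28, edgeR adjusted p = 0.0333), and gave −0.14 with sh78 (0.312, or 0.0284 with the block).

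In the PERK and ATF4 arm, the other branch of the response, 7 genes were called lower with each hairpin. Of its 12 listed genes, edgeR called 7 with sh76 and 7 with sh78, with 0 higher and medians of −0.50 and −0.63. The sh76 count went to 2 without sh76 replicate 2, to 3 without sh76 replicate 1 and to 4 without scramble replicate 1 or 2 or sh76 replicate 3 or with limma at a pseudocount of 0.1. The block called 9 and 12 lower. DDIT3, the CHOP transcription factor, fell from 14.3 ± 1.30 CPM to 9.61 ± 0.886 and 7.23 ± 1.29 CPM (edgeR adjusted p = 0.0477 and 0.00211). CHAC1, a glutathione-degrading enzyme, fell from 24.7 ± 4.69 CPM to 13.5 ± 2.49 and 11.3 ± 2.24 CPM (edgeR adjusted p = 0.017 and 0.00346). This list was chosen with results of these samples known, so its direction is no independent evidence. ATF4 targets also respond to amino acid supply and other stresses, not to the ER alone. Heat shock genes of the cytosol and mitochondria, 16 in all, served as chaperones outside the ER, with medians of 0.09 and 0.02. Several varied widely between replicates: with scramble HSPA1A had 36.2 to 108 CPM and HSPA8 524 to 913 CPM. Others varied less, such as HSP90AB1 at 1155 to 1241 CPM, so the list is no steady reference as a whole. HSP90AA1 rose with sh76 from 2114 ± 185 to 2769 ± 185 CPM (edgeR adjusted p = 0.023), a call that was lost without scramble replicate 1 or 3 or sh76 replicate 2 and with limma. With sh78 it gave 0.12 (0.55, or 0.0281 with the block). HSPA9, the mitochondrial HSP70, fell with sh78 from 330.2 ± 10.4 to 241 ± 11.0 CPM (edgeR adjusted p = 0.000743), and gave −0.22 with sh76 (0.0571, or 6.42e-05 with the block). The block called 4 of the 16 higher and 1 lower for sh76, and 2 higher and 3 lower for sh78.

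**Figure D4:**
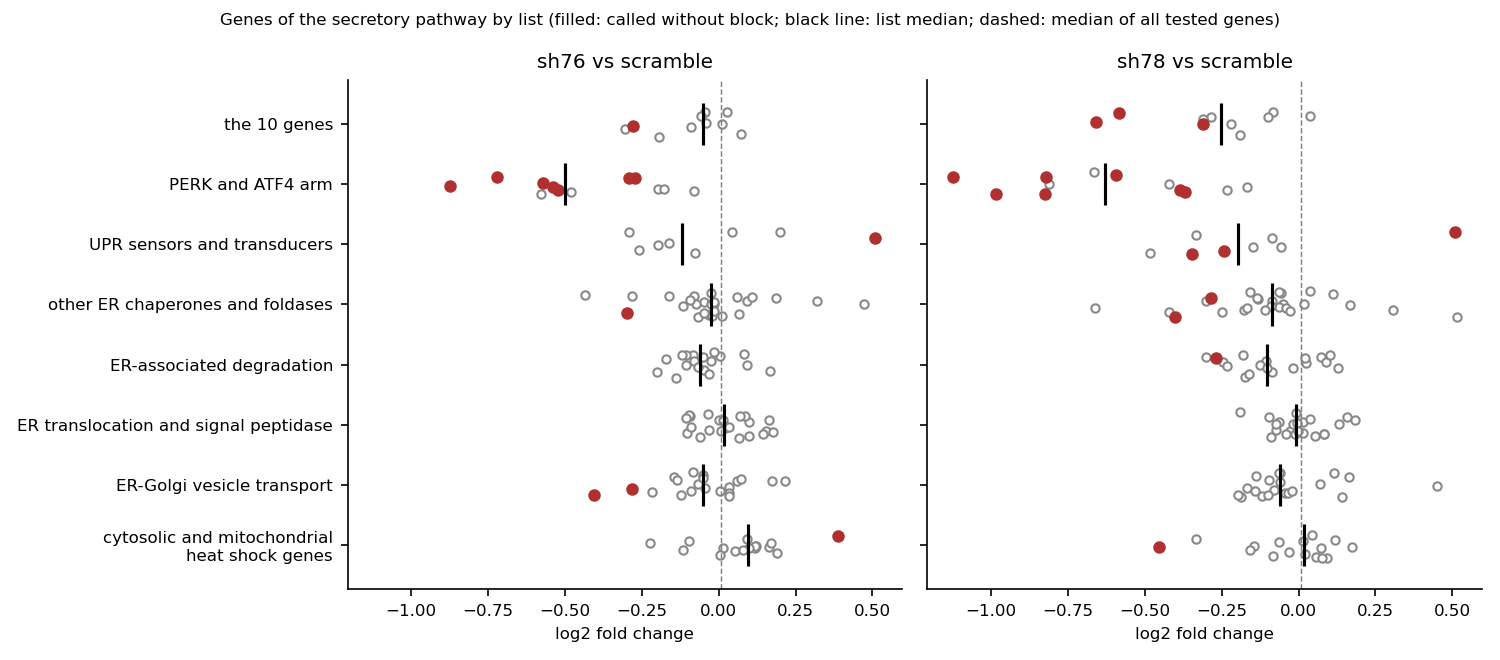
Log2 fold change of each gene in the 10 genes and in 7 other lists, for sh76 (left) and sh78 (right) against scramble; filled red points were called by edgeR without the block, black lines are list medians and the dashed line is the median of all tested genes. The median of the 10 genes moves from −0.05 with sh76 to −0.25 with sh78, and the PERK and ATF4 arm is lower in both panels, at −0.50 and −0.63.

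The profile of HSPA5 over the 9 libraries was compared with every other protein-coding gene of at least 1 FPKM in each group, 10823 in all, as a description without a test. The most similar by Pearson correlation of log2 CPM were NOM1 (r = 0.98), TXNDC15 (0.96), FAT2 (0.95), MED8 (0.95) and CYP4B1 (0.93). The other 9 genes of the list gave values from 0.24 for DNAJB9 to 0.80 for MANF. The genes named first were picked as the highest of 10823 values over only 9 libraries, so their high values arise in part by selection. That the 9 genes chosen beforehand lie below such a maximum does not show that HSPA5 follows its own list less closely. These libraries share depth, groups and replicate numbers, which all enter such a correlation.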

How the data were processed

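Poly-A RNA of 9 OVCAR3 samples was sequenced without strand, per the labels' protocols. The authors deposited raw counts per gene, which are whole numbers with a different total in each library, and FPKM values, each for 58735 genes. The submitters' processing notes name HISAT2 2.0.5, featureCounts 1.5.0-p3 and the build hg38, without their settings. Names and coordinates of all 58735 genes equal those of GENCODE release 29 (GRCh38). The deposited FPKM values equalled count over gene length and over 1 size per library, which was 98.09% to 102.97% of its total count.

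Groups and replicate numbers come from the labels. Tests on the counts used edgeR 4.0.16 (R 4.3.3): filterByExpr (minimum count 10, minimum total 15), TMM factors, estimateDisp and robust glmQLFit, with 1 coefficient per group over all 9 samples and 6 residual degrees of freedom. P-values were adjusted by Benjamini-Hochberg over 17023 genes, and a gene was called under 0.05. Standard errors are the log2 fold change divided by the root of F, and 95% intervals use the fit's total degrees of freedom. The 4 contrasts were each hairpin against scramble, their mean against scramble, and sh78 against sh76. Within groups, a chi-square comparison of counts gave 5.32 to 12.2 per degree of freedom, so no library repeated another.

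Replicates are numbered 1 to 3 in each group by the labels. Across genes, deviations from the group means correlated at 0.14 to 0.39 in all 9 same-numbered pairs of libraries, and at −0.31 to 0.06 in the 18 other pairs. Deviations sum to 0 within a group, so positive same-numbered pairs pull the other pairs down, and the latter are no separate evidence. On the same-numbered values, the numbers were taken to pair the samples. A fit with the number as a block (4 residual degrees of freedom) is given where it changes a call or a count. For the cell type markers it is given for EPCAM only.

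Alternatives were DESeq2 1.42.0, DESeq2 size factors, upper-quartile factors, no filter on low counts, limma 3.58.1 on log2 FPKM with pseudocounts 1 and 0.1, only the 2 groups compared, the block, and each library left out. The named genes are the 10 genes, GPX3, 6 sensor and protease genes, up to 2 highest and 2 lowest called genes of each other list by the mean of both hairpins, and the 5 genes most like HSPA5. The 10 genes and the lists were chosen with earlier results of these data known. Coordinates are 1-based. Motifs were searched in RefSeq promoter windows with exact letters.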

Additional observations from a re-analysis of the deposited data

Results flagged for a closer look

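XBP1 differed between the hairpins: sh78 against sh76 gave a log2 fold change of −0.31 (95% interval −0.44 to −0.17, edgeR adjusted p = 0.0163), in 3 of 3 same-numbered pairs. It is listed because both hairpins target GPX3 and the difference itself passed the test. GPX3 also differed, at 55.9 ± 0.852 CPM (SD, n = 3) in the sh76 samples and 30.6 ± 4.01 CPM (SD, n = 3) in the sh78 samples. Whether the depth of the knockdown or the hairpin itself goes with the difference cannot be told apart in this design. The XBP1 call was lost in 4 of 9 fits that left out a library, where the adjusted p ran from 0.0138 to 0.0785.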

How the results depend on the processing

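Of the 8 differences called among the 10 genes, 133 repeats under other settings kept their direction, 121 of them on the same side of the threshold and 12 not. The exceptions were XBP1 for sh76, with only the 2 groups compared and without 4 libraries, XBP1 for sh78 against sh76 without 4 libraries, HYOU1 for sh78 without sh78 replicate 3, and HYOU1 for the mean of both hairpins without scramble replicate 1 (adjusted p = 0.051) or 2 (0.0672). Of the 32 not called, 17 of 537 repeats passed the threshold, most with the replicate block. HERPUD1 for sh78 against sh76 passed with DESeq2 (0.0431), with no filter on low counts (0.0325), with the block (0.000393) and without scramble replicate 1 (0.0457). Signs changed in 9 repeats, each without 1 library and none called: leaving out libraries gave HSPA5 −0.014 to 0.027, HSP90B1 −0.019 to 0.059, SDF2L1 −0.14 to 0.028 and PDIA4 −0.11 to 0.021 for sh76, DNAJB9 −0.020 to 0.099 for sh78 and −0.088 to 0.031 for sh78 against sh76.

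The replicate block called 3, 7, 6 and 6 of the 10 genes lower, in place of 1, 3, 3 and 1, for sh76, sh78, their mean and sh78 against sh76. DESeq2 and no filter each called 2 for sh78 against sh76, and only the 2 groups compared called 0 for sh76. Leaving out 1 library gave 0 to 1, 2 to 3, 2 to 3 and 0 to 2. Over all genes, the 610, 750, 687 and 629 calls became 3467, 3388, 3462 and 3117 with the block, 1149, 1212, 1181 and 1125 with no filter, and 237 to 655, 418 to 810, 299 to 726 and 273 to 780 when libraries were left out. The cause of these changes was not tested. At 3 libraries a group, the 95% interval of HSPA5 for sh76 ran from −0.10 to 0.13 on the log2 scale, which limits how small a difference could be seen.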

Other observations

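The promoter motifs were also used to find other genes with the same elements, a list chosen after the data were seen. ERSE or ERSE-II was in 46 of the 35116 windows, which belong to 7 of the 10 genes and to 37 other gene symbols, 23 of them tested as protein-coding genes. With edgeR 0 of the 23 were called for sh76, for sh78 or between the hairpins. An unadjusted p under 0.05 was found for 3, 7 and 4, and DESeq2 called 0, 0 and 1. Over all 17023 tested genes, edgeR called 610, 750 and 629, and 2959, 2983 and 2768 had an unadjusted p under 0.05. With the replicate block, 2 were higher and 1 lower for sh76, 3 higher and 7 lower for sh78, and 1 higher and 3 lower for sh78 against sh76. Their median log2 fold changes were −0.02, −0.08 and −0.06, beside 0.0064, 0.0063 and 0.00029 for all tested genes. Negative values were found for 12, 15 and 17 of the 23, beside 8265, 8293 and 8502 of all 17023 tested genes. Over all tested genes, the block called 1639 higher and 1828 lower for sh76, and 1666 higher and 1722 lower for sh78. For sh78 against sh76 it called 1650 higher and 1467 lower.

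ERO1A, the oxidase that reoxidises protein disulfide isomerase, differed between the hairpins, and was picked after its values were seen. It had 96.6 ± 7.37 CPM with scramble (SD, n = 3), 120 ± 11.0 CPM with sh76 and 78.6 ± 11.4 CPM with sh78. The difference between the hairpins was called (log2 fold change −0.62, edgeR adjusted p = 0.00476), and neither hairpin was called against scramble (0.111 and 0.133, or 3.99e-06 and 1.74e-05 with the replicate block).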
